A study of Homo sapiens with 21 samples.

Results

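Transcripts of 8 genes of the epidermal growth factor (EGF) family were followed across 21 RNA-seq libraries of the established human lung fibroblast line IMR90. The genes are 5 ligands (AREG, EREG, HBEGF, TGFA and NRG1) and 3 receptors (EGFR, ERBB2 and ERBB3). They were found by gene symbol among the 16383 genes of the deposited table, and all 8 were present. The libraries form 7 groups of 3. Proliferating cells received neither irradiation nor siRNA, per the labels. The other 6 groups were irradiated to bring on senescence, a lasting arrest of cell division, and were transfected with 5 nM siRNA by means of the reagent DharmaFECT, first on day 4 after irradiation and again on day 7. They were harvested on day 10. Their siRNAs were the non-targeting controls NT3 and NT4, or were directed against CCND1 (cyclin D1), CDK4, CDK6, or CDK4 and CDK6 together (dual knockdown). Effects of irradiation and of transfection therefore cannot be told apart in any comparison with proliferating cells. The labels name 1 reagent per target, so an effect of the reagent outside its target cannot be told apart from an effect of the target. All groups share 1 cell line with no further genetic change named, and nothing in the labels says that the 3 libraries of a group came from separate cultures. The p-values therefore measure the spread between these libraries, which may be technical.

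EGF-family ligands are made as membrane-bound precursors and are released by proteases of the ADAM family. AREG (amphiregulin) and TGFA (transforming growth factor alpha) bind EGFR, whereas EREG (epiregulin) and HBEGF (heparin-binding EGF-like growth factor) bind both EGFR and ERBB4. NRG1 (neuregulin 1) binds ERBB3 and ERBB4. ERBB2 has no known ligand of its own and acts as the partner of the other receptors, and ERBB3 has little kinase activity and depends on its partner. Bound receptors pair and signal through the RAS and ERK kinases, which in turn switch on genes that include feedback inhibitors. Amphiregulin, epiregulin and neuregulin are known as secreted products of senescent fibroblasts.

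In the GENCODE v44 annotation of GRCh38, AREG lies at chr4:74445136-74455005 on the plus strand and EREG at chr4:74365145-74388749 on the same strand, with 56386 bases between them. HBEGF lies at chr5:140332843-140346603 on the minus strand and TGFA at chr2:70447284-70554193, also on the minus strand. EGFR lies at chr7:55019017-55211628, ERBB2 at chr17:39687914-39730426 and ERBB3 at chr12:56076799-56103505, all on the plus strand. The 250 bases before the start site are shown for the 3 ligands with the largest called falls in CDK6 knockdown, from RefSeq on GRCh38.p14, written 5′ to 3′ on the gene's own strand. They span chr4:74444886-74445135 for AREG, chr4:74364895-74365144 for EREG and chr5:140346604-140346853 on the minus strand for HBEGF. Capitals mark matches to 3 motifs that were searched for, each read on either strand. They were the cAMP response element TGACGTCA, the AP-1 site TGANTCA and the TATA box TATAAA. None of the 3 can overlap another.
AREG: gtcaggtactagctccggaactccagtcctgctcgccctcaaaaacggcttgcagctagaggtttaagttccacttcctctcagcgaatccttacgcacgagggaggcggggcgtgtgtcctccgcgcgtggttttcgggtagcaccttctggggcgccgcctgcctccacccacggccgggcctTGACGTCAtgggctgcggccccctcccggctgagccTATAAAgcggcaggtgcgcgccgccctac
EREG: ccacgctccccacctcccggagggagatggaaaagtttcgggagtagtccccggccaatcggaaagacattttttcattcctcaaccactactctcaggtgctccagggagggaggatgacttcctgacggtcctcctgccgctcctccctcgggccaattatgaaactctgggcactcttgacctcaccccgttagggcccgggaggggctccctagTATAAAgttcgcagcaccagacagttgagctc
HBEGF: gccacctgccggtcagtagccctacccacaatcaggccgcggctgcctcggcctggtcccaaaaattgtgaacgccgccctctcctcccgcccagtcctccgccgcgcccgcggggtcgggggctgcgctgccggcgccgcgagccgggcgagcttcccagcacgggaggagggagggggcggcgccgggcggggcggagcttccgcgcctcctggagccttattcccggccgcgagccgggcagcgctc
The AREG window held TGACGTCA at 65 bases and TATAAA at 29 bases before the start. The EREG window held TATAAA at 32 bases before the start. The HBEGF window held none of these letters, and of the other members' windows that were searched, ERBB2 held TGATTCA at 222 bases before its RefSeq start. The ERBB2 window spans chr17:39687844-39688093, so that start lies downstream of the GENCODE gene start given above. Among 35116 RefSeq promoter windows of the same length, 1.65% held TGACGTCA, 6.57% held TGANTCA and 10.7% held TATAAA, each on either strand. The TATAAA matches of AREG and EREG lay on the gene's own strand, for which no separate share was counted. A match is a description of the letters only.

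Reads in the listed genes numbered 12892442 to 21822152 per library. The targeted genes were lower in their own knockdowns, with log2 fold changes of -3.05 for CCND1, -3.51 for CDK4 and -2.59 for CDK6. In the dual knockdown the values were -3.40 for CDK4 and -2.27 for CDK6. All 9 fibroblast markers examined were present. Epithelial markers summed to 14.9 to 55.0 normalised counts per library, mostly EPCAM, with KRT5, KRT14, SFTPC and NKX2-1 at or near 0. Among immune markers CD68 stood at 650.2 to 1588 and CD14 at 2.657 to 37.95, while PTPRC, CD3E and LYZ stayed below 10. Among endothelial markers TEK stood at 1756 to 4484. VWF reached 22.33 at most, PECAM1 20.63, KDR 18.45 and CDH5 3.28. The library called NT3 replicate 3 was low in long genes: its log2 deviations from the other NT3 libraries had a Spearman correlation of -0.48 with exon length across genes. EGFR (-1.49) and NRG1 (-0.52), both long genes, were low in it, and their main values are given with and without it.

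The ligand transcripts were far higher in senescent control cells than in proliferating cells, while the receptor transcripts moved little. Normalised counts (reads divided by a size factor for each library) of AREG were 17.5, 20.2 and 19.5 in proliferating cells, 244, 306 and 326 with NT3, and 237, 207 and 231 with NT4. For EREG they were 48.9, 50.0 and 51.4 in proliferating cells, 401, 548 and 386 with NT3, and 423, 458 and 402 with NT4. Every control library lay above every proliferating library for both genes, a separation found for 54.1% of all tested genes. On the scale of log2(value + 1), AREG rose by 3.68 (SE 0.13, limma adjusted p = 6.87e-16) and EREG by 3.09 (SE 0.13, limma adjusted p = 5.78e-15). Fewer cells expressing a gene and less RNA per cell cannot be told apart in these bulk libraries.

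HBEGF and NRG1 followed the same direction. HBEGF stood at 131, 152 and 181 normalised counts in proliferating cells, 639, 669 and 709 with NT3, and 694, 677 and 559 with NT4. NRG1, which lies at chr8:31639222-32855666 on the plus strand, stood at 253, 250.1 and 252 in proliferating cells, 1911, 2001 and 1368 with NT3, and 1427, 1354 and 1479 with NT4. Neither gene's control libraries overlapped the proliferating ones. HBEGF rose by 2.09 (SE 0.11, limma adjusted p = 3.7e-13) and NRG1 by 2.63 (SE 0.10, limma adjusted p = 6.83e-16), or by 2.72 without NT3 replicate 3. TGFA had 0 reads in each proliferating library, against 1, 4 and 9 reads with NT3 and 9, 3 and 0 reads with NT4. Set against a floor of 3 reads per library, its control mean was at least 1.64-fold higher. Its call (limma adjusted p = 0.0254) rests on these few reads and was lost in 9 of 21 alternatives, with adjusted p from 0.00224 to 0.991. Leaving out any single proliferating library, NT3 replicate 3 or NT4 replicate 1 was enough to lose it. It passed the filter on low values only through 3 irradiated libraries, 1 each of NT3, NT4 and CDK4 knockdown.

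Of the 8 members, 5 were called higher in senescent controls and 1, ERBB2, lower (limma, threshold 0.05). The 5 include TGFA, which could enter the tests only through irradiated libraries. Across all 11579 tested genes, 32.6% were higher and 36.1% lower, so either call was common in this comparison. Beside these changes, all 3 tested endothelial markers, both tested immune markers and the 1 tested epithelial marker (EPCAM, 0.71) were also called higher. Among them VWF, KDR and CD14, like TGFA, could enter the tests only through irradiated libraries, which limits what their calls show. Of 9 fibroblast markers 7 were called lower. The part of all these markers in the ligand values was not tested.

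**Figure D1:**
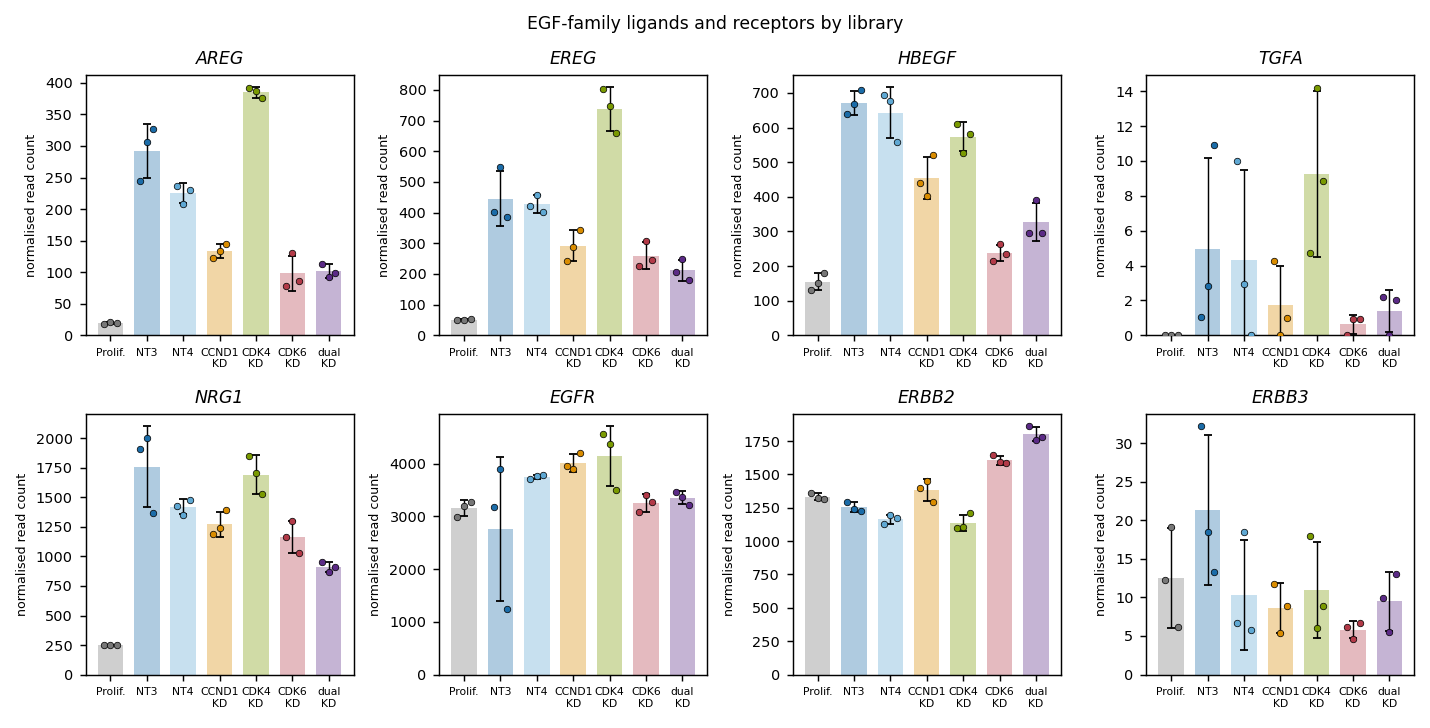
Normalised read counts of the 8 members on linear axes that start at 0, with 1 point per library, bars at group means and error bars of 1 SD (n = 3), cut off at 0 for TGFA. AREG, EREG, HBEGF and NRG1 are lowest in proliferating cells in every library, and the single low EGFR point among the NT3 libraries is replicate 3 at 1245.

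The 2 non-targeting controls were then compared with each other, since every knockdown is set against their mean. None of the members passed limma's threshold between NT4 and NT3, although 4 had an unadjusted p under 0.05 and edgeR and DESeq2 each called 2 members. Across all tested genes 27.8% were called, so the 2 control groups differed widely. That share includes NT3 replicate 3, and effects of the siRNAs and of single libraries cannot be told apart in it. Among the ligands the log2 differences of NT4 from NT3 were -0.37 for AREG (limma adjusted p = 0.0803), -0.29 for NRG1 (limma adjusted p = 0.0541), -0.07 for HBEGF and -0.04 for EREG. AREG was below its lowest NT3 value in all NT4 libraries. The NRG1 difference was -0.46 without NT3 replicate 3 (limma adjusted p = 0.00015, with 7.62e-05 to 0.237 over all alternatives), and it was called in 8 of 18 alternatives. AREG was called in 4 of 18 (adjusted p from 0.0304 to 0.356). Effects of knockdown on AREG and NRG1 are therefore given against NT3 alone and NT4 alone as well.

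Knockdown of CDK6 lowered 4 ligands at once. AREG stood at 78.4, 130.4 and 85.3 normalised counts, which is 37.9% of the mean of the 6 control libraries. HBEGF stood at 216, 263 and 235, or 36.1% of the control mean. EREG stood at 225, 307 and 246, or 59.5% of it. For these 3 genes the CDK6-knockdown libraries lay below every control library, and above every proliferating library. Libraries of the 2 arms were separate in 28.6% of all tested genes. HBEGF fell by 1.47 on the log2 scale (SE 0.11, limma adjusted p = 1.67e-09), AREG by 1.41 (SE 0.13, limma adjusted p = 3.63e-08) and EREG by 0.75 (SE 0.13, limma adjusted p = 7.32e-05). The AREG value was -1.59 against NT3 alone and -1.22 against NT4 alone.

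NRG1 stood at 1167, 1299.8 and 1028 after CDK6 knockdown, or 73.3% of the control mean, with no overlap with the controls. It fell by 0.44 (limma adjusted p = 0.000921), or by 0.52 without NT3 replicate 3. Against NT3 alone the value was -0.58 and against NT4 alone -0.29 (limma adjusted p = 0.0502, with 1.79e-07 to 0.0502 over all alternatives). Together with ERBB3, which had few reads, 5 of 8 members were lower and 1, ERBB2, was higher, against 20.8% of all tested genes lower and 21.1% higher. No immune or epithelial marker that could be tested was called in this comparison, while 5 of 9 fibroblast markers and the endothelial marker TEK (0.69) were called higher and KDR lower.

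AREG, EREG, HBEGF and NRG1 were lower in the dual knockdown than in the controls. AREG stood at 114, 92.8 and 99.1 normalised counts, EREG at 205, 249 and 181. HBEGF stood at 296, 392 and 294 and NRG1 at 957, 869 and 909. For each of the 4 genes the 3 libraries lay below all 6 controls, where 28.3% of all tested genes had separate libraries. The log2 fold change was -1.32 for AREG (SE 0.13, limma adjusted p = 6.09e-08) and -1.04 for EREG (limma adjusted p = 1e-06). It was -1.01 for HBEGF (limma adjusted p = 2.3e-07) and -0.78 for NRG1 (limma adjusted p = 8.74e-07). Against NT3 alone and NT4 alone AREG was at -1.51 and -1.14 and NRG1 at -0.93 and -0.64, and NRG1 was at -0.87 without NT3 replicate 3. Thus 4 of 8 members were lower and 1 higher, against 21.5% and 22.5% of all tested genes. Both tested immune markers were lower and 7 of 9 fibroblast markers higher in this comparison, and their part in the ligand values was not tested.

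Set directly against proliferating cells, the dual-knockdown libraries still held 5.35 times the mean AREG count, 4.23 times the EREG, 3.62 times the NRG1 and 2.12 times the HBEGF count. All 4 were called higher, with log2 differences of 2.36, 2.05, 1.85 and 1.08 and limma adjusted p-values of 1.2e-11, 6.54e-11, 2.46e-12 and 2.26e-07. With ERBB2, 5 of 8 members were higher and none lower, while 32.7% of all tested genes were higher and 32.9% lower. Both tested immune markers and 2 of 3 tested endothelial markers were also higher, and of 9 fibroblast markers 4 were higher and 4 lower. VWF, KDR and CD14 could again enter the tests only through irradiated libraries. The part of the markers was not tested.

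Knockdown of CCND1, the cyclin that CDK4 and CDK6 bind, lowered AREG, EREG and HBEGF. AREG stood at 122, 133 and 144 normalised counts, or 51.5% of the control mean. EREG stood at 242, 288 and 344 (66.8%) and HBEGF at 440.3, 401 and 521 (69.0%). These 3 genes did not overlap the controls, as was so for 21.2% of all tested genes. AREG fell by 0.94 (SE 0.13, limma adjusted p = 1.83e-05; -1.12 against NT3 alone and -0.75 against NT4 alone), EREG by 0.58 (limma adjusted p = 0.00152) and HBEGF by 0.54 (limma adjusted p = 0.000964). NRG1 stood at 1187, 1242 and 1389.8, which overlaps the controls. Its difference of -0.31 (limma adjusted p = 0.0189) was -0.39 without NT3 replicate 3, -0.45 against NT3 alone and -0.16 against NT4 alone (limma adjusted p = 0.344, with 2.62e-05 to 0.344 over all alternatives), and the call was also lost without CCND1 replicate 1 or replicate 2. Of 8 members 4 were lower and 1 higher, against 14.4% and 16.7% of all tested genes. Both tested immune markers were called lower here, and their part was not tested.

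CDK4 knockdown gave the opposite sign for the 2 neighbours on chromosome 4. AREG stood at 392, 388 and 376 normalised counts and EREG at 804, 747 and 661, above every control library for both genes. Libraries of CDK4 knockdown and controls were separate in 11.2% of all tested genes. These levels were 149% and 169% of the control means. AREG rose by 0.59 (SE 0.13, limma adjusted p = 0.00389) and EREG by 0.76 (SE 0.13, limma adjusted p = 0.000264). Against NT4 alone the AREG value was 0.77 and against NT3 alone 0.41 (limma adjusted p = 0.0567, with 2.26e-05 to 0.0567 over all alternatives). HBEGF stood at 611, 528 and 582 and NRG1 at 1849.6, 1706 and 1526, both overlapping the controls, with differences of -0.20 (limma adjusted p = 0.264) and 0.11 (limma adjusted p = 0.511). The NRG1 difference was 0.02 without NT3 replicate 3, -0.04 against NT3 alone and 0.25 against NT4 alone. These 2 rises, with no member called lower, compare with 8.46% of all tested genes higher and 7.55% lower. CD68, an immune marker, was also higher (0.48) in this comparison. CD14, the other tested immune marker, was not called, with a mean of 15.6 against 27.4 in the controls. PTPRC, CD3E and LYZ stayed below 10. Of 9 fibroblast markers 1 was called higher and 3 lower. The part of these markers in the ligand values was not tested.

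**Figure D2:**
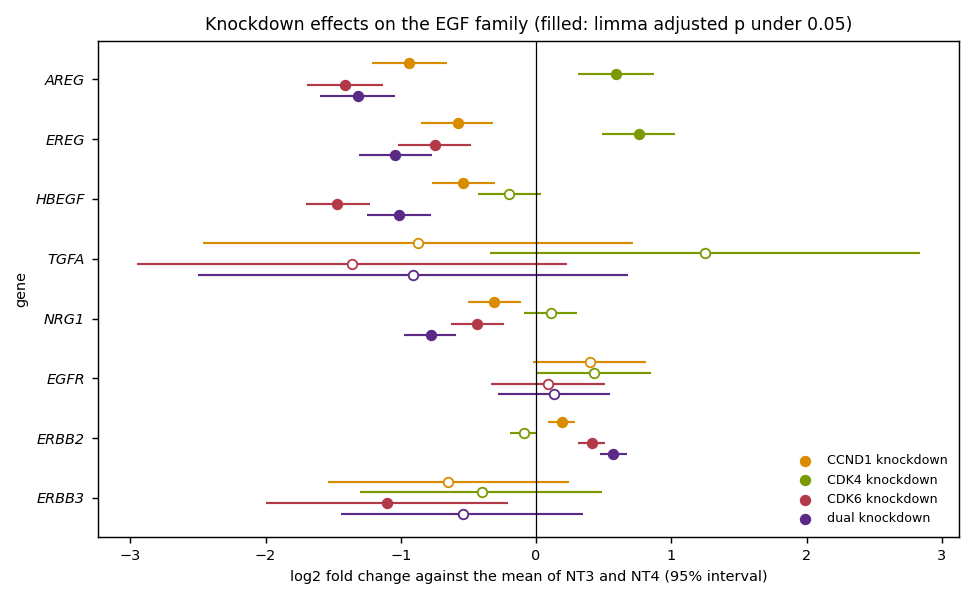
Log2 fold change of each member in the 4 knockdowns, relative to NT3 and NT4 averaged, with lines for the 95% interval and filled points for a limma adjusted p under 0.05 (n = 3 per knockdown, 6 controls). AREG and EREG lie to the right of 0 only for CDK4 knockdown among these 4 comparisons, which share their controls, and the TGFA and ERBB3 intervals are wide because few reads were counted.

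A comparison that shares no control sets CDK6 knockdown against CDK4 knockdown. AREG was 4.00-fold lower (log2 -2.00, SE 0.15, limma adjusted p = 2.18e-09), EREG 2.85-fold lower (-1.51, limma adjusted p = 7.15e-08) and HBEGF 2.41-fold lower (-1.27, limma adjusted p = 1.22e-07). NRG1 was 1.46-fold lower (-0.54, limma adjusted p = 0.000557). TGFA had 0, 1 and 1 reads with CDK6 knockdown against 5, 14 and 9 with CDK4 knockdown, and was called lower (limma adjusted p = 0.0253). That call was lost without CDK4 replicate 2 or 3 and without CDK6 replicate 1, and the adjusted p ran from 0.00558 to 0.104 over the alternatives. With TGFA, which reached a value of 10 here only in a CDK4-knockdown library, 5 of 8 members were lower and 1, ERBB2, higher, where 17.3% of all tested genes were lower and 17.5% higher.

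With CDK4 siRNA added, the ligands of CDK6-depleted cells changed in different directions. HBEGF was higher in dual than in CDK6 knockdown by 0.45 (SE 0.13, limma adjusted p = 0.0233), with libraries at 296, 392 and 294 against 216, 263 and 235. NRG1 was lower by 0.35 (SE 0.11, limma adjusted p = 0.0404), and AREG differed by 0.09 with a 95% interval of -0.23 to 0.41. These are 1 member higher and 1 lower, against 6.05% and 6.94% of all tested genes. Leaving out CDK6 replicate 1 or dual replicate 2 ended both calls. Leaving out any other single library of the 2 groups ended the NRG1 call, except CDK6 replicate 3, without which the HBEGF call was lost instead. Against CDK4 knockdown, the dual knockdown was lower in AREG (-1.91), EREG (-1.80), HBEGF (-0.82) and NRG1 (-0.89) and higher in ERBB2 (0.66), so 4 members were lower and 1 higher against 14.8% and 15.8% of all tested genes. CCND1 knockdown stood above CDK6 knockdown in HBEGF by 0.93 (SE 0.13, limma adjusted p = 3.98e-05). AREG was higher by 0.47 (limma adjusted p = 0.0484) and ERBB2 lower by 0.22 (limma adjusted p = 0.0112), where 6.78% of all tested genes were higher and 5.43% lower. The AREG call was lost in 12 of 18 alternatives, with adjusted p from 0.00222 to 0.247, and without CCND1 replicate 3 or CDK6 replicate 1 only HBEGF of these 3 remained called.

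The dual knockdown was also set beside its 2 single knockdowns added together on the log2 scale. EREG differed from that sum by -1.05 (SE 0.20, 95% interval -1.46 to -0.65, limma adjusted p = 0.0016). HBEGF lay above it by 0.65 (SE 0.17, limma adjusted p = 0.026) and ERBB2 by 0.25 (SE 0.07, limma adjusted p = 0.0418). The HBEGF call was lost in 6 of 29 alternatives and the ERBB2 call in 16 of 29. AREG (-0.51, limma adjusted p = 0.154) and NRG1 (-0.45, limma adjusted p = 0.068) did not pass. NRG1 passed in 8 of 29 alternatives, among them without NT3 replicate 3 (-0.37, limma adjusted p = 0.0171, with 0.0171 to 0.188 over all alternatives). Here 2 of 8 members were higher and 1 lower, against 2.63% and 3.71% of all tested genes. Mean CDK6 was 968 normalised counts in dual and 773 in CDK6 knockdown, and the part of this difference was not tested.

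Ordered by group mean, AREG and EREG both ran from CDK4 knockdown at the top through NT3, NT4 and CCND1 knockdown to proliferating cells at the bottom. For AREG each step down to CCND1 knockdown was free of overlap between libraries, and CDK6 and dual knockdown overlapped each other. For EREG the libraries of NT3 and NT4 overlapped, as did those of CCND1 and CDK6 knockdown and of CDK6 and dual knockdown. HBEGF was highest in NT3 and NT4, with NT4 overlapping both NT3 and CDK4 knockdown, and then stepped down without overlap through CCND1, dual and CDK6 knockdown. NRG1 ran from NT3, CDK4 knockdown, NT4, CCND1 and CDK6 knockdown to dual knockdown. NT3 overlapped CDK4 knockdown for NRG1 only through NT3 replicate 3, at 1368 against 1911 and 2001.

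Of the receptors, EGFR was the most abundant and its comparison with proliferating cells turned on 1 library. EGFR stood at 2996, 3203 and 3280.0 normalised counts in proliferating cells, 3169, 3889.8 and 1245 with NT3 and 3704, 3765 and 3779.9 with NT4. The difference of senescent controls from proliferating cells was -0.05 (SE 0.20, limma adjusted p = 0.841) with all libraries. Without NT3 replicate 3, at 1245, it was 0.20 (limma adjusted p = 0.00841, the lowest over all alternatives, which reached 0.963). The library's EGFR deviation from the other NT3 libraries was -1.49 on the log2 scale, in the direction of its trend with exon length. After that trend was removed from every library, the difference was 0.11 (limma adjusted p = 0.524).

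In the knockdowns EGFR stood at 3948, 3897 and 4211 for CCND1, 4565, 4367 and 3504 for CDK4, 3084, 3411 and 3272 for CDK6, and 3463, 3374 and 3223 for the dual knockdown. None of these passed limma's threshold against the controls. The differences were 0.40 for CCND1 (limma adjusted p = 0.143), 0.43 for CDK4 (limma adjusted p = 0.161), 0.09 for CDK6 (limma adjusted p = 0.748) and 0.13 for dual knockdown (limma adjusted p = 0.615). Without NT3 replicate 3 the same differences were 0.15, 0.18, -0.16 and -0.11. The limma adjusted p-values were then 0.0851, 0.0456, 0.0521 and 0.152, so the CDK4 value passed and the signs for CDK6 and dual knockdown turned. Over all alternatives the adjusted p for CDK4 knockdown ran from 0.0137 to 0.786. EGFR overlaps the antisense gene EGFR-AS1, and whether counting used strand is not given in the sources used here, so reads of the pair cannot be told apart.

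**Figure D3:**
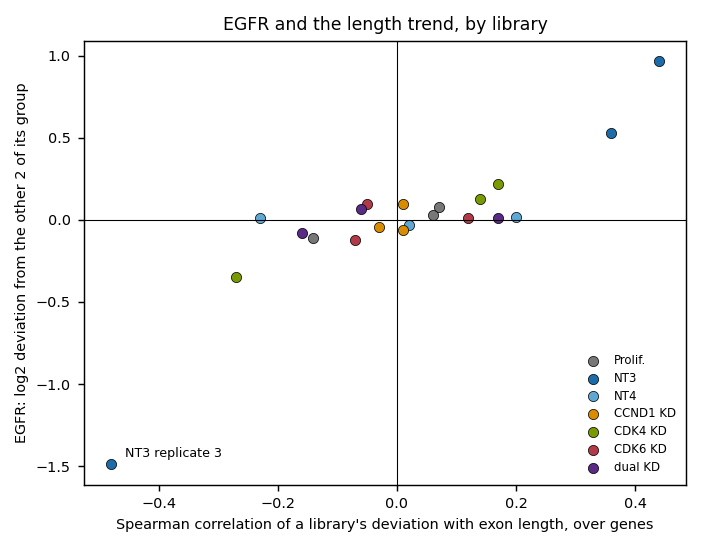
Each point is 1 of the 21 libraries: the x axis gives the Spearman correlation, across genes, between a library's log2 deviation from the other 2 libraries of its group and exon length, and the y axis gives the EGFR deviation in log2 units. NT3 replicate 3 lies at -0.48 and -1.49, and since deviations are taken within a group the other NT3 libraries are displaced the opposite way.

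Against the controls, ERBB2 was called higher in CCND1, CDK6 and dual knockdown, where AREG, EREG, HBEGF and NRG1 were called lower. In dual knockdown against proliferating cells ERBB2 was higher, by 0.43 (limma adjusted p = 5.97e-07), and so were these ligands. It stood at 1361, 1326 and 1316 normalised counts in proliferating cells, 1295, 1240.1 and 1229 with NT3, and 1128, 1194 and 1173 with NT4. CDK6 knockdown gave 1644, 1591 and 1585, and dual knockdown 1861, 1757 and 1784, above every library of the other groups. ERBB2 rose by 0.41 in CDK6 knockdown (SE 0.05, limma adjusted p = 7.11e-07) and by 0.57 in dual knockdown (SE 0.05, limma adjusted p = 3.69e-09), to 133% and 149% of the control mean. CCND1 knockdown gave 1402, 1451 and 1293, which overlaps the controls, with a rise of 0.19 (limma adjusted p = 0.00462). That call was lost in 3 of 23 alternatives, among them against NT3 alone (0.14, limma adjusted p = 0.055, with 0.00113 to 0.0862 over all alternatives). CDK4 knockdown gave 1097, 1109 and 1207, with a difference of -0.09 (limma adjusted p = 0.235). The fall of 0.14 in senescent controls (limma adjusted p = 0.0124) was small and was not called after median centring (-0.03, limma adjusted p = 0.599, with 0.00422 to 0.599 over all alternatives) or without proliferating replicate 1.

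ERBB3 was close to the limit of counting in every group, with 5 to 31 reads per library. Reads numbered 14, 18 and 7 in proliferating cells, 31, 26 and 11 with NT3 and 6, 19 and 6 with NT4. CDK6 knockdown had 6, 5 and 7 reads, which overlaps the controls. Its call there (-1.10, limma adjusted p = 0.0443) was lost in 11 of 22 alternatives, including against NT4 alone (-0.57, limma adjusted p = 0.422), with adjusted p from 0.0104 to 0.422. It was also lost without NT3 replicate 1, NT4 replicate 2 or any single CDK6 library. Groups neighbouring in level overlapped throughout for ERBB3, and for TGFA as well.

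Levels of different genes can be compared only per length of transcript. In normalised counts per kilobase of the reference (MANE) transcript, EGFR stood at 319 and ERBB2 at 293 in proliferating cells, against 65.6 for HBEGF, 21 for NRG1, 15.4 for AREG and 10.9 for EREG. In senescent controls HBEGF reached 279 and AREG 210, beside 329 for EGFR and 266 for ERBB2. NRG1 reached 133 and EREG 94.6, while ERBB3 stood at 2.82 and TGFA at 1.12. The order in the controls depends on the length used. Over the union of exons HBEGF (220.1) lay above EGFR (204), AREG (157.5) above ERBB2 (117) and EREG (76.4) above NRG1 (74.4). The EGFR and NRG1 values here include NT3 replicate 3. EGFR stood at 1245 normalised counts in it, against 3169 to 3890 in the other control libraries. Values per kilobase were not computed without it, so the order of HBEGF and EGFR over the union of exons may rest on that library.

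Of the other ligands and receptors of the family, EGF, BTC, NRG2, NRG3 and ERBB4 were measured, and EPGN and NRG4 were not analysed here. EGF was the 1 of these 5 that passed the filter, with group means of at most 47.2 normalised counts, and the other 4 stayed below 10 in every library. EGF was not called in senescent controls (0.28, limma adjusted p = 0.296) or in any knockdown against the controls.

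Genes tied to release of the ligands were examined next. They include the inhibitor TIMP3, so the counts below are not a measure of release. Of 11 shedding genes tested, 8 were higher and 1 lower in senescent controls than in proliferating cells, with a median of 0.45, where 32.6% of all tested genes were higher and 36.1% lower. RHBDF2, a partner that carries ADAM17 to the cell surface, stood at 107.4, 81.9 and 84.1 normalised counts in proliferating cells and between 214 and 335 in the 6 controls, and rose by 1.56 (SE 0.11, limma adjusted p = 2.3e-11). ADAM15 rose by 0.93 (limma adjusted p = 1.8e-11), and FRMD8, which stabilises the RHBDF2 complex, by 0.81 (limma adjusted p = 9.48e-12). CDK6 knockdown left 1 of the 11 higher and 3 lower, against 21.1% and 20.8% of all tested genes. RHBDF2 fell by 0.62 (limma adjusted p = 8.16e-05), ADAM12 by 0.29 (limma adjusted p = 0.0262) and FRMD8 by 0.22 (limma adjusted p = 0.00205). RHBDF2 also differed between the control groups, at -0.54 for NT4 against NT3 (limma adjusted p = 0.00268). In CCND1 knockdown 6 were higher and none lower, led by TIMP3, an inhibitor of ADAM17, at 0.65 (limma adjusted p = 1.33e-09). In dual knockdown 6 were higher and 2 lower, and in CDK4 knockdown 2 were higher and 1 lower. Over all tested genes 16.7%, 22.5% and 8.46% were higher in these 3 comparisons, and 14.4%, 21.5% and 7.55% lower. Against NT4 alone the 6 became 3 for both CCND1 and dual knockdown.

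Genes of receptor inhibition and turnover were called in both directions in senescent controls. Of 14 tested, 5 were higher and 5 lower there, against 32.6% and 36.1% of all tested genes. LRIG3 fell by 1.15 (limma adjusted p = 2.31e-10), while CBLB, a ubiquitin ligase of activated receptors, rose by 1.15 (limma adjusted p = 1.36e-09). LRIG1, a membrane protein that promotes the degradation of EGF receptors, fell by 0.62 in CDK6 knockdown (limma adjusted p = 6.71e-07) and by 0.59 in dual knockdown (limma adjusted p = 1.06e-06). In the knockdowns the list counted 5 higher and 1 lower for CCND1, 1 and 2 for CDK4, 3 and 1 for CDK6, and 4 and 4 for dual knockdown. Over all tested genes 16.7%, 8.46%, 21.1% and 22.5% were higher in these comparisons, and 14.4%, 7.55%, 20.8% and 21.5% lower. Against NT4 alone the counts of the list were 2 and 1, 0 and 1, 2 and 4, and 4 and 5.

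Adaptors and the RAS to ERK kinases were counted in the same way. In senescent controls 3 of 17 were higher and 6 lower (32.6% and 36.1% over all tested genes), with NRAS at -0.92 (limma adjusted p = 3.65e-13), GAB1 at -1.04 (limma adjusted p = 6.62e-08) and MAPK3, which encodes ERK1, at 0.68 (limma adjusted p = 6.08e-09). In CCND1, CDK4, CDK6 and dual knockdown 9, 5, 9 and 9 of the 17 were higher, and 0, 0, 2 and 0 lower. Over all tested genes 16.7%, 8.46%, 21.1% and 22.5% were higher, and 14.4%, 7.55%, 20.8% and 21.5% lower. These counts depended on the control: 8 of the 17 were higher in NT4 than in NT3, and against NT4 alone 3, 3, 4 and 7 were higher. MAPK3 rose by 0.49 in CDK6 knockdown (limma adjusted p = 3.66e-06) and by 0.54 in dual knockdown (limma adjusted p = 8.1e-07).

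Genes that respond to ERK, among them feedback phosphatases and inhibitors, had more calls higher than lower in senescent controls and more lower than higher after CCND1, CDK6 or dual knockdown. Of 17 listed genes 14 were among the genes analysed here, and 13 of these passed the filter and were tested. Of the 13, 8 were higher and 2 lower in senescent controls, with a median of 0.48, against 32.6% and 36.1% of all tested genes. DUSP4, a phosphatase of ERK, stood at 48, 35.1 and 23.9 normalised counts in proliferating cells and between 186 and 245 in the controls, and rose by 2.67 (SE 0.14, limma adjusted p = 3.68e-13). DUSP6 rose by 1.65 (limma adjusted p = 8.56e-15) and SPRY4, a feedback inhibitor of the RAS pathway, by 0.89 (limma adjusted p = 2.67e-06). ETV4 and FOSL1, the 2 that were lower, were at -0.36 and -0.28.

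In CDK6 knockdown 8 of the 13 were lower and 1 higher, with a median of -0.44, against 20.8% and 21.1% of all tested genes. DUSP4 stood at 98.7, 123 and 113 and fell by 1.01 (limma adjusted p = 8.72e-06), FOSL1 by 0.76 (limma adjusted p = 2.33e-08) and PHLDA1 by 0.75 (limma adjusted p = 5.97e-07). In dual knockdown 9 were lower and none higher, with a median of -0.41, against 21.5% and 22.5% of all tested genes. DUSP4 fell by 1.46 (limma adjusted p = 4.15e-08), ETV4 by 0.95 (limma adjusted p = 3.48e-08) and PHLDA1 by 0.93 (limma adjusted p = 1.78e-08). CCND1 knockdown lowered 8 and raised 2, against 14.4% and 16.7% of all tested genes, with PHLDA1 at -0.58 (limma adjusted p = 3.37e-05). Against NT4 alone 4 of the 13 were lower and 1 higher. CDK4 knockdown lowered 2 of 13, ETV4 and ETV5, against 7.55% of all tested genes. None of the 13 was lower against NT4 alone, and 4 were lower against NT3 alone. Without shared controls, 8 of the 13 were lower and 1 higher in CDK6 than in CDK4 knockdown, against 17.3% and 17.5% of all tested genes. DUSP4 was at -0.88 there (limma adjusted p = 0.000252).

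**Figure D4:**
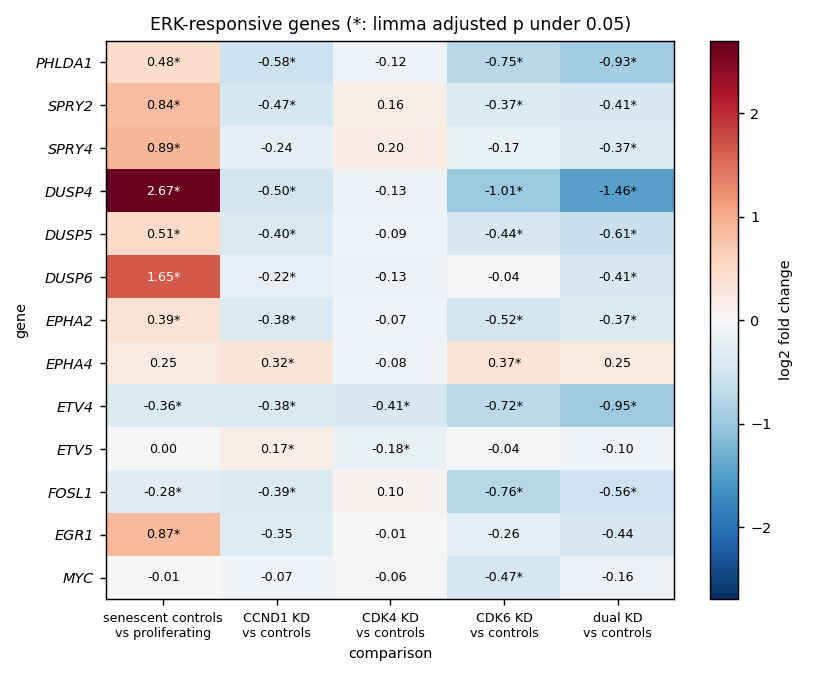
Log2 fold change of the 13 tested ERK-responsive genes in senescent controls against proliferating cells and in each knockdown relative to NT3 and NT4 averaged, with asterisks for a limma adjusted p under 0.05. The CCND1, CDK6 and dual knockdown columns hold 8, 8 and 9 calls lower, and the CDK4 column 2.

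AREG and EREG sit beside the CXC chemokine genes on chromosome 4. The tested genes of the region moved together in some comparisons and apart in others. Within 500000 bases of the pair, CXCL1, CXCL2, CXCL3, CXCL5 and PARM1 passed the filter, whereas BTC, PF4, PPBP and PPBPP2 reached 10 normalised counts in no library. All 5 of the former were called higher in senescent controls (median 6.01), as were AREG and EREG, against 32.6% of all tested genes. None of the 5 reached 10 in a proliferating library, so they could enter the tests only through irradiated libraries. In CCND1, CDK6 and dual knockdown 4 of the 5 were lower, as were AREG and EREG, against 14.4%, 20.8% and 21.5% of all tested genes. Mean CXCL1 was 2.29 in proliferating cells, 1284 with NT3, 228 with NT4, 183, 401 and 59.8 in CCND1, CDK4 and CDK6 knockdown, and 48.6 in dual knockdown. The 4 chemokines were lower in NT4 than in NT3, with CXCL1 at -2.51 (limma adjusted p = 0.00121), a comparison in which EREG was at -0.04. They were lower in CDK6 knockdown as well, with CXCL1 at -3.31 (limma adjusted p = 5.72e-06) and CXCL5 at -3.19 (limma adjusted p = 7.41e-09), and were not called in CDK4 knockdown, where CXCL1 was at -0.41 (limma adjusted p = 0.606). PARM1 was higher in senescent controls by 4.35 (limma adjusted p = 6.25e-16) and was called in none of the 4 knockdowns. Chemokines of this cluster are similar in sequence, so the split of reads between them is uncertain.

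The genes whose pattern was most like each member were found by Pearson correlation over the 18 irradiated libraries, among 9058 genes with a mean of at least 100. The libraries fall into 6 groups, so these values mostly restate differences between groups. For AREG the closest were TNFAIP2 (0.95), VWA5A (0.94) and ATP2B1 (0.94), and for EREG TBX3 (0.94), ATP2B1 (0.93) and AREG itself (0.93). HBEGF was closest to BCL2L1 (0.97), PPIF (0.96) and SLC20A1 (0.95), and NRG1 to SAMHD1 (0.95), VWA5A (0.93) and TIMELESS (0.92). ERBB2 was closest to EFEMP1 (0.96), GAS6 (0.95) and GFRA1 (0.95), and correlated at -0.88 with AREG, -0.89 with EREG and -0.85 with HBEGF. EGFR was closest to LARP1 (0.97), ZMIZ1 (0.97) and WNK1 (0.96), but without NT3 replicate 3 its closest were ZFHX3 (0.86), WNK1 (0.85) and TMEM131 (0.85). Without that library the closest to NRG1 were CXCL5, PTGS2 and VWA5A (0.95 each), and those to AREG were ATP2B1 (0.97), EREG (0.95) and TBX3 (0.94). EREG was then closest to AREG (0.95), NPC1 (0.95) and NAB1 (0.94), and the 2 closest to ERBB2 were IGFBP7 (0.98) and EFEMP1 (0.97).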

How the data were processed

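Per the labels, RNA was taken up in TRIzol and its poly(A) fraction was captured for sequencing. The submitters' processing notes name Trimmomatic 0.38.1, HISAT2 2.2.1, featureCounts 2.0.3, FastQC 0.74, MultiQC and DESeq2 2.11.40.8, with hg38. The annotation and the strand setting are not given in the sources used here. In the deposited table each gene has 1 signal value in each library, which the file headers name a normalised count. All values (100%) were whole reads, within 0.001 reads, divided by 1 size factor per library.

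Table columns carry group and serial number, so replicate numbers follow column order and are names only. A gene entered the tests when 3 or more of the 21 libraries reached a value of 10, which left 11579. All libraries were fitted together on log2(value + 1) with limma 3.58.1 in R 4.3.3 (trended variance, two-sided). Benjamini-Hochberg adjustment covered all tested genes in each of 12 comparisons. edgeR 4.0.16 and DESeq2 1.42.0 were run on the recovered reads as alternatives. Intervals are 95%.

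The text names all members, the 3 knockdown targets, the marker genes, neighbours of AREG and EREG within 500000 bases and, from each pathway list, up to 3 genes per comparison that passed the threshold without overlap of libraries, by size. ETV4 and FOSL1 in senescent controls were named to account for a count of 2. The members and lists were chosen with earlier results of these data known. The scripts were tested on simulated data.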

Additional observations from a re-analysis of the deposited data

Results flagged for a closer look

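The effect of CDK6 siRNA on 3 members differed according to whether CDK4 siRNA was present, by limma's test of the interaction. For EREG the effect was more negative with CDK4 siRNA, by -1.05 on the log2 scale (SE 0.20, limma adjusted p = 0.0016). HBEGF was the reverse, with a difference of 0.65 (SE 0.17, limma adjusted p = 0.026), which did not pass in 6 of 29 alternatives (adjusted p from 0.00504 to 0.0846). ERBB2 also rose more with CDK4 siRNA, by 0.25 (SE 0.07, limma adjusted p = 0.0418), and did not pass in 16 of 29 alternatives (adjusted p from 0.0108 to 0.186). CDK6 itself was depleted less with CDK4 siRNA, with a mean of 968 normalised counts in dual against 773 in CDK6 knockdown. These designs cannot tell that difference apart from the presence of CDK4 siRNA.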

How the results depend on the processing

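Of 75 fold changes of members, 43 kept their direction and side of the threshold under every alternative run, and 14 of the 48 called ones lost the call under at least 1. No called fold change turned its sign. Signs that turned belonged to values that were not called. For EGFR in senescent controls they were 0.06 with median centring, 0.03 with quantile normalization, 0.25 against NT4 alone, 0.03 with edgeR and TMM, 0.06 with edgeR and DESeq2 size factors, 0.06 with DESeq2 and 0.11 after length-trend correction, and leaving out 1 library gave -0.21 to 0.20 (the latter without NT3 replicate 3). For EGFR in CDK6 knockdown they were -0.20 against NT4 alone and -0.05 after length-trend correction, and leaving out 1 library gave -0.16 to 0.25. In dual knockdown they were -0.16 against NT4 alone, and leaving out 1 library gave -0.11 to 0.30. Between NT4 and NT3, leaving out 1 library gave -0.13 to 0.12 for EREG and -0.13 to 0.03 for HBEGF, which was 0.01 after length-trend correction. NRG1 in CDK4 knockdown was -0.04 against NT3 alone, and AREG in dual against CDK6 knockdown ran from -0.05 to 0.31 when 1 library was left out. The cause was not tested.

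The count of members called between NT4 and NT3, 0 by limma, was 1 with a filter on a mean of 100, with median centring or with quantile normalization, and 2 with edgeR under either scaling, with DESeq2 or after length-trend correction; leaving out 1 library gave 0 to 2. For CCND1 knockdown it was 3 in place of 5 when only the compared groups were fitted. For dual against CDK6 knockdown it was 1 in place of 2 with no filter, where HBEGF and NRG1 lost the call and ERBB2 gained it. It was 3, with ERBB2 added, with DESeq2, with median centring, after length-trend correction, with only the compared groups fitted or with genes kept from a mean of 100 up, and 0 to 1 when 1 library was left out. Leaving out 1 library gave 1 to 3 for CCND1 against CDK6 knockdown and 1 to 4 for the dual knockdown against the sum. Length-trend correction, the replicate block and the list counts were chosen after seeing the data.

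The columns carry no replicate number from the labels. Runs of their serial numbers were fitted as a replicate block over the irradiated libraries. Deviations of libraries in the same run correlated at -0.11 to 0.10, against -0.14 to 0.16 in different runs, so the runs were not taken to pair samples. With the block 0, 5, 2, 5 and 5 members were called for NT4 against NT3 and for CCND1, CDK4, CDK6 and dual knockdown, and 2 rather than 3 for the dual knockdown against the sum. TGFA and ERBB3 rest on few reads, which limits what can be called for them.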
